A study of Mus with 6 samples.

Results

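Proteasome genes were followed in mouse CD4+ T cells activated through the T cell receptor while VEGF-B was neutralized with an antibody. Members were the genes whose symbol starts with Psma, Psmb, Psmc, Psmd, Psme, Psmf or Psmg and a number and whose mean over the 6 libraries was at least 1 FPKM (fragments per kilobase of transcript, scaled to the mapped fragments of the library). The table held 48 such symbols among 10995 genes listed, and 47 of them reached the minimum. The other one, Psmc3ip, had a mean of 0.600 FPKM and is named for its product's binding to the ATPase PSMC3 rather than for a place in the proteasome. By role, 14 members encode the constitutive core particle, 5 the immunoproteasome set, 20 the regulatory particle with its chaperones, and 8 the core assembly chaperones together with other activators and an inhibitor. Psma8 and Psmb11, whose products are tied to the testis and the thymus, were not analysed here.

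Spleen naive CD4+ T cells of WT genotype, meaning cells that have not yet met their antigen, were cultured for 3 days with anti-CD3 at 5 μg/mL, anti-CD28 at 2 μg/mL and 100 U/mL of IL-2. These additions were shared by both groups. In one group the cultures also held anti–VEGF-B (1 μg/mL) and in the other normal goat IgG (1 μg/mL). RNA-Seq was performed on 3 libraries per group. The study worked with C57BL/6 mice. Neither an age nor a number of mice was given for these libraries, and nothing said whether the 3 libraries of a group came from separate cultures, so p-values measure only the spread between these libraries, which may be technical.

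The proteasome is the large protease that breaks down proteins tagged with ubiquitin. Its core particle, the 20S, is a stack of rings of alpha and beta subunits, with the cutting sites on PSMB5, PSMB6 and PSMB7. The 19S regulatory particle caps the core, where a ring of ATPases (PSMC subunits) unfolds the tagged protein and the non-ATPase PSMD subunits bind and remove ubiquitin. In lymphocytes, and in other cells exposed to interferon-γ, the inducible subunits PSMB8, PSMB9 and PSMB10 take the places of PSMB5, PSMB6 and PSMB7 in newly built cores. These immunoproteasomes make many of the peptides shown on MHC class I. PSME1 and PSME2 form the 11S activator (PA28αβ), another cap on the core that is induced by interferon-γ. Chaperones, among them the PSMG proteins, guide the assembly of new cores.

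The values were compared as log2(FPKM + 1) with limma. Genes whose mean reached 1 FPKM entered the test, 8816 in all, and a gene was called at a Benjamini-Hochberg adjusted p under 0.05. Fold changes are given as anti–VEGF-B minus IgG on this log2 scale, on which changes of genes near 1 FPKM come out smaller than they are. The table carried no read counts, so the depth of the libraries is unknown and their FPKM sums ran from 260058 to 276622. Values lay lower with anti–VEGF-B for 71.2% of the genes tested, with a median log2 fold change of -0.15. All 7 CD4 T cell markers were detected, with summed levels of 486 to 520 FPKM with anti–VEGF-B and 481 to 542 FPKM with IgG. Among these, Cd3e lay lower with anti–VEGF-B with no overlap (9.60 to 12.9 against 14.3 to 18.6 FPKM). So did Cd5 (56.3 to 69.9 against 71.9 to 93.4 FPKM). The groups overlapped for the other 5, and the part of this in the results was not tested. Of the CD8 T cell markers, Cd8a was at no more than 0.182 FPKM in any library. Cd8b1 was at 3.32 to 4.51 FPKM with anti–VEGF-B and 2.27 to 4.15 FPKM with IgG. Of 6 myeloid markers 3 were listed, and their sum was 3.95 to 5.11 FPKM in the anti–VEGF-B libraries, 4.60 and 4.79 FPKM in IgG replicates 1 and 2 and 19.8 FPKM in IgG replicate 3, where Lyz2 was at 16.4 FPKM. Of 5 B cell markers only Cd79b was listed, at up to 1.34 FPKM, and of the NK and erythroid markers 0 were listed. In bulk RNA, fewer cells of a type and less RNA per cell cannot be told apart.

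Every proteasome class was expressed in every library, and the order of the genes by level was nearly the same in both groups. Across the 47 members the Spearman correlation of the group means in FPKM was 0.99, a description over genes that share the same libraries. Member means over the 6 libraries ran from 1.07 FPKM for Psmd9, a chaperone of the 19S base, to 263 FPKM for Psmb1, a beta subunit without a cutting site. The core had a median level of 37.6 FPKM, the immunoproteasome set 47.2 FPKM, the regulatory particle 18.1 FPKM and the assembly and other activator genes 5.25 FPKM. Psmc6, an ATPase of the 19S ring, had a mean of 111 FPKM, while the other 5 ATPases had means between 10.4 and 26.9 FPKM. The summed level of the core was 739 ± 29.1 FPKM (SD, n = 3) with anti–VEGF-B and 778 ± 36.4 FPKM with IgG. The sum of the 5 immunoproteasome genes was 228 ± 5.64 FPKM and 235 ± 13.7 FPKM in the same order, and that of the regulatory particle 462 ± 8.68 FPKM and 469 ± 11.6 FPKM. For these 3 classes the libraries of the groups overlapped. The sum of the assembly and other activator genes was 68.8 ± 6.15 FPKM with anti–VEGF-B and 83.1 ± 3.88 FPKM with IgG, and its highest anti–VEGF-B library (74.8 FPKM) lay below its lowest IgG library (80.8 FPKM).

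**Figure D1:**
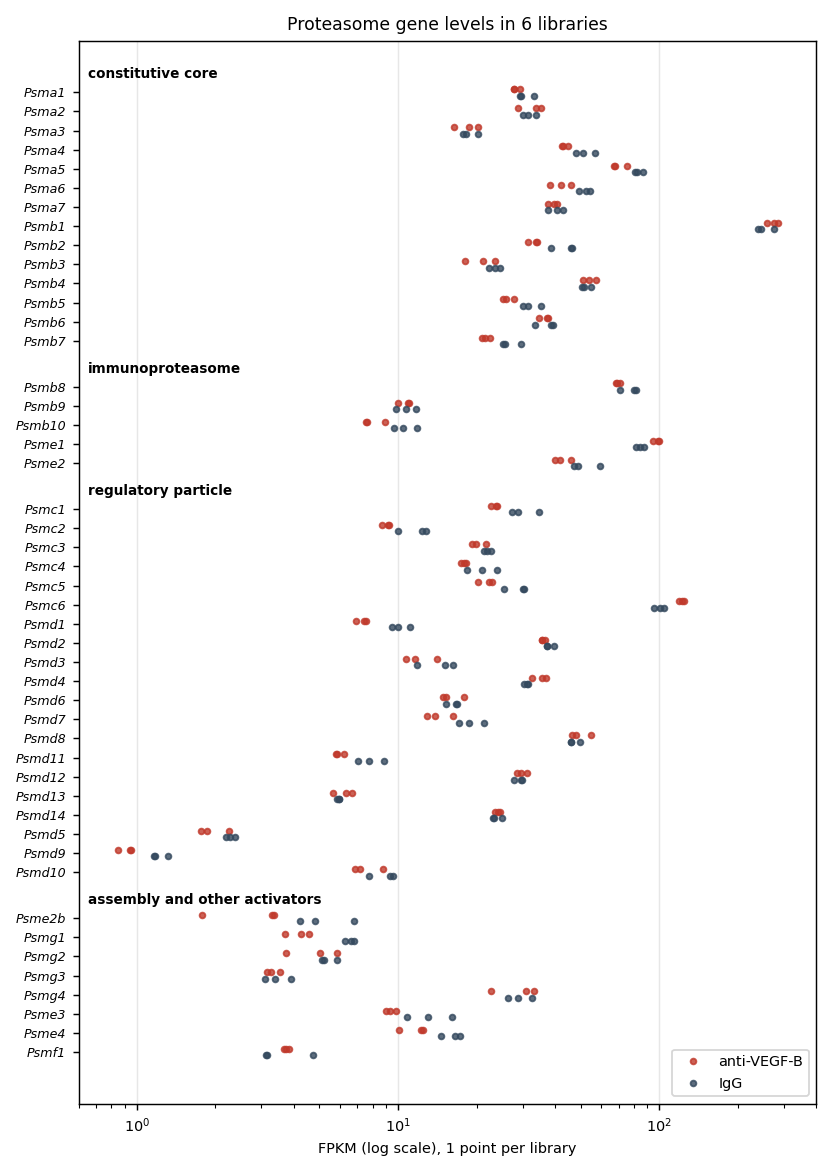
FPKM of each of the 47 proteasome genes in each library on a log axis, 1 point per library, red for anti–VEGF-B and dark blue for IgG, grouped by class. The levels span 1.07 to 263 FPKM as means, Psmb1 and Psmc6 stand out on the right, and the shift between colours is small beside the differences between genes.

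Of the 47 proteasome genes, 17 fell with anti–VEGF-B and 1, Psmc6, rose, while 29 did not pass the test. The fall covered 36.2% of members where 23.8% of all genes tested were called lower, and the rise 2.13% where 4.87% were called higher. The median log2 fold change of the members was -0.16, beside the -0.15 of all genes, and relative to that median 25 members lay below and 22 above. With a minimum mean of 5 FPKM, 4927 genes were tested, 42 of them members. The median of these 4927 genes was -0.09, with 20.1% called lower and 6.94% higher, while 16 members were called lower and 2 higher. All 3 anti–VEGF-B values lay below all 3 IgG values for 23 members, where this held for 38.5% of all genes tested, and above them for 3 members (Psmc6, Psme1 and Psmd4), where it held for 10.5%. By class, 6 of 14 core genes, 1 of 5 immunoproteasome genes, 6 of 20 regulatory particle genes and 4 of 8 assembly and other activator genes fell. The count depended on single libraries, as did that over all genes. Without anti–VEGF-B replicate 3 there were 2 members called lower (Psmb2 and Psmg1) and 0 higher, where 7.88% of all genes were lower and 1.86% higher. Without IgG replicate 2 there were 5 lower and 0 higher, where the shares of all genes were 12.5% and 2.93%. It was 10 lower and 1 higher without anti–VEGF-B replicate 1 (all genes 15.5% and 3.54%) and 6 and 1 without anti–VEGF-B replicate 2 (16.2% and 3.24%). Without IgG replicate 1 it was 8 and 1 (23.5% and 4.49%), and without IgG replicate 3 it was 14 and 1 (17.3% and 3.72%).

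**Figure D2:**
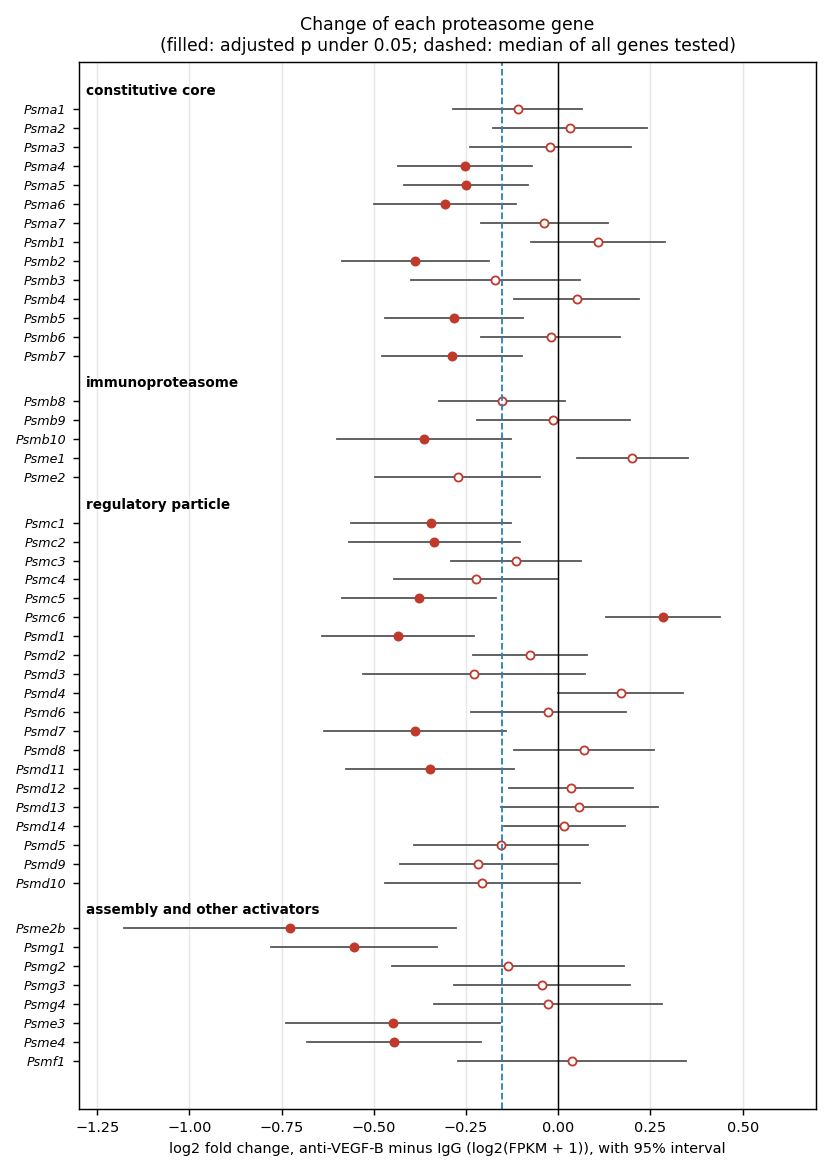
The log2 fold change of each proteasome gene, anti–VEGF-B minus IgG on log2(FPKM + 1), with its 95% interval from limma, filled where the adjusted p was under 0.05. The dashed line is the median of all genes tested at -0.15, and most points lie between -0.5 and 0.25 on both sides of it, with Psmc6 the filled point on the right.

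Which members were called also depended on how the libraries were scaled to each other. The deposited FPKM put the median of all genes tested at -0.15, quantile normalization at 0.01 and centring each library on its median FPKM at 0.04. With quantile normalization 8 members were lower (Psmc5, Psma6, Psmc1, Psmg1, Psmb2, Psma4, Psme4 and Psma5) and 1 higher (Psmc6), which is 17.0% and 2.13% of members, where 10.4% of all genes were lower and 9.98% higher. With median centring 2 were lower (Psmg1 and Psme2b) and 3 higher (Psmd4, Psmc6 and Psme1), which is 4.26% and 6.38% of members, where 10.4% of all genes were lower and 16.1% higher. Scaling to Actb left 4 members lower and 1 higher, where 14.8% of all genes were lower and 4.14% higher, and cyclic loess normalization 8 lower and 1 higher, where it was 10.6% and 9.66%. All 17 genes that fell kept a negative value under these 4 other scalings, but only Psmg1 was called lower under all 4, and 7 of the 17 (Psmb5, Psmb7, Psmb10, Psmc2, Psmd7, Psmd11 and Psme3) were called under none. Psmc6 was called higher under all 4.

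The alpha subunits form the outer rings of the core and hold the gate through which proteins enter. Psma6, which encodes the α1 subunit, fell. Its values were 45.95, 38.2 and 42.0 FPKM with anti–VEGF-B and 52.6, 54.6 and 49.3 FPKM with IgG. The lowest IgG library lay above the highest anti–VEGF-B library, and the log2 fold change was -0.31 ± 0.09 (SE; limma, adjusted p = 0.0287). Psma4 (-0.25, adjusted p = 0.0438) and Psma5 (-0.25, adjusted p = 0.0351 in limma) also fell, with groups that did not overlap. Among all genes tested 23.8% were called lower, and 38.5% lay lower with anti–VEGF-B without overlap. The highest log2 fold change among the 7 alpha genes was that of Psma2, which was at 33.8, 28.8 and 35.2 FPKM with anti–VEGF-B and 31.5, 33.8 and 30.1 FPKM with IgG. Its groups overlapped, at 0.03 ± 0.09. Psma1, Psma3 and Psma7 lay between -0.11 and -0.02 and did not pass the test. In the fits without 1 library, Psma4 was called lower in 1 of 6 (without IgG replicate 3), Psma5 in 1 (without anti–VEGF-B replicate 1) and Psma6 in 2. Psma6 missed the threshold without anti–VEGF-B replicate 2 or 3 or IgG replicate 1 or 2, with adjusted p up to 0.0853 in limma. Psma4, Psma5 and Psma6 were each called under 2 of the 4 other scalings. Psma2 overlaps AW209491 on the same strand by 8943 bases and Psma4 overlaps AY074887 on the other strand by 209 bases, so part of their reads may belong to those genes.

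Of the 4 beta subunits without a cutting site, Psmb2 fell and Psmb1, Psmb3 and Psmb4 did not pass the test. The share of all genes tested that was called lower was 23.8%. Psmb2, which lies on chromosome 4 at 126677630 to 126709714 (GRCm38, plus strand), was at 34.0, 31.6 and 33.8 FPKM with anti–VEGF-B and at 46.0, 46.6 and 38.7 FPKM with IgG. The groups did not overlap, and the means were 33.1 ± 1.34 and 43.8 ± 4.40 FPKM (SD, n = 3). The log2 fold change of Psmb2 was -0.39 ± 0.09 (limma, adjusted p = 0.0152), and it was called lower in each of the 6 fits that left out 1 library (-0.47 to -0.34). With median centring its value was -0.16 and with scaling to Actb its adjusted p in limma was 0.0567. Psmb1, the most abundant proteasome mRNA, was at 276, 258 and 285 FPKM with anti–VEGF-B and at 274, 240 and 246 FPKM with IgG. The groups overlapped, with a log2 fold change of 0.11 (95% interval -0.07 to 0.29).

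Of the genes of the 3 constitutive subunits that cut proteins, 2 were called lower and 1 was not called. Lower calls covered 23.8% of all genes tested. Differences between the 3 genes were not tested. Psmb5, which carries the chymotrypsin-like site, was at 27.8, 26.0 and 25.3 FPKM with anti–VEGF-B and at 31.6, 35.2 and 30.2 FPKM with IgG. Psmb7, which carries the trypsin-like site, was at 21.6, 22.5 and 21.0 FPKM with anti–VEGF-B and at 29.5, 25.7 and 25.2 FPKM with IgG. In both genes every anti–VEGF-B library lay below every IgG library, with log2 fold changes of -0.28 ± 0.08 (adjusted p = 0.0338) and -0.29 ± 0.08 (adjusted p = 0.0333, limma). Both calls were lost under each of the 4 other scalings and in 5 of the 6 fits without 1 library, and held without IgG replicate 3. Psmb6, which carries the caspase-like site, was at 37.4, 37.4 and 34.6 FPKM with anti–VEGF-B and at 39.1, 38.5 and 33.5 FPKM with IgG. Its groups overlapped at a log2 fold change of -0.02 (95% interval -0.21 to 0.17), a value that was above 0 under the 4 other scalings. Psmb7 overlaps Nek6 on the other strand by 6571 bases. The library kit keeps strand, but whether strand was used in the counting was not given in the sources used here.

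Among the 5 immunoproteasome genes Psmb10 fell and the other 4 did not pass the test, with log2 fold changes from -0.36 to 0.20 and a median of -0.15. All genes tested had the same median, and 23.8% of them were called lower. Psmb8 (LMP7), the counterpart of Psmb5, was at 68.7, 70.9 and 68.5 FPKM with anti–VEGF-B and at 79.9, 81.3 and 70.9 FPKM with IgG. The groups touched without overlapping, with a highest anti–VEGF-B value of 70.88 and a lowest IgG value of 70.91 FPKM, and the log2 fold change was -0.15 ± 0.08 (adjusted p = 0.152 in limma). Median centring turned it to 0.08. Psmb9 (LMP2), the counterpart of Psmb6, was at 10.9, 10.0 and 11.003 FPKM with anti–VEGF-B and at 10.7, 11.8 and 9.84 FPKM with IgG. Here the groups overlapped at a log2 fold change of -0.01 (95% interval -0.22 to 0.19), which the 4 other scalings turned to between 0.05 and 0.20. Psmb10 (MECL-1), the counterpart of Psmb7, was at 8.93, 7.60 and 7.58 FPKM with anti–VEGF-B and at 10.4, 11.8 and 9.67 FPKM with IgG. All IgG libraries lay above all anti–VEGF-B libraries, with a log2 fold change of -0.36 ± 0.10 (limma, adjusted p = 0.0312). The Psmb10 call was lost under the 4 other scalings (adjusted p 0.0650 to 0.227) and without anti–VEGF-B replicate 2 or 3 or IgG replicate 1 or 2 (up to 0.105, limma). IgG replicate 3, the library with the high myeloid marker sum, had the lowest IgG values of Psmb8, Psmb9, Psmb10 and Psme1. Psmb9 overlaps Tap1 on the other strand by 212 bases.

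The inducible subunits were compared with the constitutive subunits they replace as ratios within a library, which a common scaling of the library leaves unchanged. Psmb8 exceeded Psmb5 in every library. The ratio of Psmb8 to Psmb5 was 2.48, 2.73 and 2.70 with anti–VEGF-B and 2.53, 2.31 and 2.35 with IgG, and the groups overlapped, with means of 2.64 ± 0.139 and 2.40 ± 0.117 (SD, n = 3). Psmb8 thus made up 72.5% ± 1.08 of the summed FPKM of the pair with anti–VEGF-B and 70.5% ± 0.998 with IgG. Psmb9 and Psmb10 stood below their counterparts in every library. The ratio of Psmb9 to Psmb6 was 0.293 ± 0.0251 with anti–VEGF-B and 0.291 ± 0.0159 with IgG, and that of Psmb10 to Psmb7 was 0.371 ± 0.0389 and 0.399 ± 0.0550. Both overlapped between groups. Psmb9 made up 22.6% and 22.5% of its pair, and Psmb10 27.01% and 28.46% of its pair, with anti–VEGF-B and IgG, respectively. At the level of classes, the median log2 level of the immunoproteasome set stood above that of the core by 0.28 with anti–VEGF-B and by 0.41 with IgG. These medians differed by -0.13 at a spread between replicates of 0.14 (pooled SD), and the libraries of the 2 groups overlapped.

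**Figure D3:**
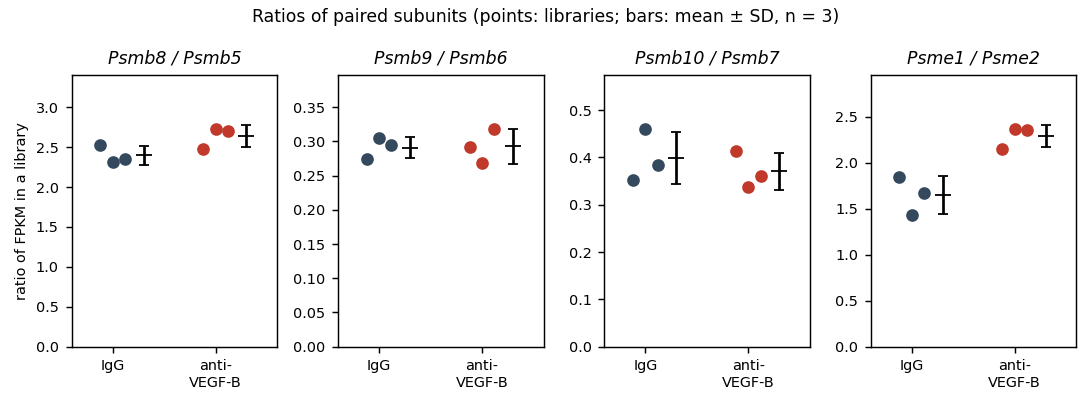
The ratio of FPKM within a library for Psmb8 to Psmb5, Psmb9 to Psmb6, Psmb10 to Psmb7 and Psme1 to Psme2, with 1 point per library (dark blue IgG, red anti–VEGF-B) and bars for the mean ± SD (n = 3). The first 3 ratios overlap between groups, while the lowest Psme1 to Psme2 ratio with anti–VEGF-B (2.16) lies above the highest with IgG (1.85).

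The genes of the 11S activator lay on opposite sides of 0. Psme1 (PA28α) was at 99.5, 94.5 and 98.7 FPKM with anti–VEGF-B and at 87.5, 84.8 and 81.9 FPKM with IgG. Psme2 (PA28β) was at 46.1, 39.9 and 41.8 FPKM with anti–VEGF-B and at 47.4, 59.1 and 49.0 FPKM with IgG. Neither gene had overlapping groups, Psme1 being higher and Psme2 lower with anti–VEGF-B. The log2 fold change of Psme1 was 0.20 ± 0.07 (limma, adjusted p = 0.0504) and that of Psme2 -0.27 ± 0.10 (limma, adjusted p = 0.0661), so neither was called. Psme1 was called higher with median centring (0.43, adjusted p = 0.0123 in limma) and with a minimum mean of 5 FPKM (adjusted p = 0.0493). It was also called with the replicate number as a block in the fit (limma, adjusted p = 0.0471). Over all alternatives the limma adjusted p of Psme1 was between 0.0123 and 0.149. The ratio of Psme1 to Psme2, formed after these values were seen and therefore given as a description, was 2.16, 2.37 and 2.36 with anti–VEGF-B and 1.85, 1.43 and 1.67 with IgG. The groups did not overlap, and the difference of the log2 ratios was 0.48 at a pooled SD of 0.14. Without IgG replicate 2, where Psme2 was highest, the difference was 0.39. The genes are neighbours on chromosome 14, Psme1 at 55578123 to 55581529 (plus strand) and Psme2 at 55587441 to 55591113 (minus strand), with 5911 bases between them. Psme1 overlaps Emc9 by 14 bases, and Psme2 is closely similar in sequence to Psme2b, so reads could have been split between the latter pair.

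In the 19S base, 3 of the 6 ATPase genes fell (Psmc1, Psmc2 and Psmc5), 1 rose (Psmc6) and Psmc3 and Psmc4 did not pass the test. Over all genes tested 23.8% were called lower and 4.87% higher. Psmc6 on chromosome 14 (45329788 to 45349705, plus strand), which encodes the ATPase Rpt4, was at 122, 119 and 125 FPKM with anti–VEGF-B and at 101, 95.5 and 104 FPKM with IgG. Its lowest anti–VEGF-B library lay above its highest IgG library. The log2 fold change of Psmc6 was 0.28 ± 0.07 (limma, adjusted p = 0.0179), the only rise among the members, and lay between 0.23 and 0.52 under the 4 other scalings. It was called in 4 of the 6 fits that left out 1 library and missed the threshold without anti–VEGF-B replicate 3 (adjusted p = 0.0715) and without IgG replicate 2 (adjusted p = 0.0507, limma). Psmc5, which encodes Rpt6, moved the other way, at 22.3, 22.9 and 20.2 FPKM with anti–VEGF-B and at 30.5, 30.2 and 25.5 FPKM with IgG. The groups did not overlap, with a log2 fold change of -0.38 ± 0.09 (limma, adjusted p = 0.0190), and the call was lost without anti–VEGF-B replicate 3 (adjusted p = 0.0723) or IgG replicate 2 (adjusted p = 0.0583). Median centring (adjusted p = 0.241) and scaling to Actb (adjusted p = 0.0719, limma) also ended the Psmc5 call. Psmc1 (-0.35, adjusted p = 0.0287) and Psmc2 (-0.34, adjusted p = 0.0386, limma) were called in 2 and 1 of the 6 fits that left out 1 library, Psmc1 without IgG replicate 1 or 3 and Psmc2 without IgG replicate 3. Under the 4 other scalings Psmc1 was called in 2 and Psmc2 in 0. The ATPases occupy one ring in equal number, and the differences between the changes of their mRNA were not tested.

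Of the 11 non-ATPase subunit genes of the 19S, 3 fell, where 23.8% of all genes tested were called lower. The other 8 did not pass the test. Psmd1, which encodes the large base subunit Rpn2, had the lowest log2 fold change of this role. It was at 7.56, 7.39 and 6.89 FPKM with anti–VEGF-B and at 11.1, 10.0 and 9.51 FPKM with IgG. The groups did not overlap, and the log2 fold change was -0.43 ± 0.09 (limma, adjusted p = 0.0123). The call for Psmd1 was lost without anti–VEGF-B replicate 3 (adjusted p = 0.0516) and under quantile, cyclic loess and median scaling (adjusted p up to 0.110, limma). The lid subunit genes Psmd7 (-0.39, adjusted p = 0.0300) and Psmd11 (-0.35, adjusted p = 0.0325, limma) also fell, but were called under 0 of the 4 other scalings. Psmd7 kept its call in 2 of the 6 fits that left out 1 library (anti–VEGF-B replicate 1 or IgG replicate 3) and Psmd11 in 1 (IgG replicate 2). Psmd4, which encodes the ubiquitin receptor Rpn10, had the highest log2 fold change of this role. It was at 36.8, 32.5 and 35.7 FPKM with anti–VEGF-B and at 30.3, 31.2 and 31.3 FPKM with IgG. All anti–VEGF-B values lay above all IgG values, with a log2 fold change of 0.17 ± 0.08 that did not pass the test (limma, adjusted p = 0.115) except with median centring (0.40, adjusted p = 0.0145). Psmd14, which encodes the deubiquitinase of the lid, had means of 24.1 ± 0.501 FPKM (anti–VEGF-B) and 23.9 ± 1.06 FPKM (IgG; SD, n = 3), with a 95% interval of the log2 fold change of -0.15 to 0.18. Psmd2, Psmd3, Psmd6, Psmd8, Psmd12 and Psmd13 lay between -0.23 and 0.07 and did not pass the test. Psmc3 and Psmd13 overlap Slc39a13 and Sirt3 on the other strand, by 4579 and 342 bases.

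The chaperones that assemble the 19S base, Psmd5, Psmd9 and Psmd10, were the genes with the lowest levels of the regulatory particle apart from Psmd11 and Psmd13. None of the 3 passed the test. Psmd9 was at 0.941, 0.847 and 0.949 FPKM with anti–VEGF-B and at 1.17, 1.18 and 1.32 FPKM with IgG. Its groups did not overlap, with a log2 fold change of -0.22 (limma, adjusted p = 0.111). The gene stood just inside the minimum of 1 FPKM in the mean and below it in every anti–VEGF-B library. Psmd5 was at 2.25, 1.76 and 1.85 FPKM with anti–VEGF-B and at 2.38, 2.19 and 2.28 FPKM with IgG, which overlapped.

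The largest falls among the members were in the group of core chaperones and alternative activators. Psmg1 (PAC1), a chaperone that helps to build the alpha ring, was at 4.55, 3.71 and 4.26 FPKM with anti–VEGF-B and at 6.81, 6.63 and 6.29 FPKM with IgG. The groups were well apart, with means of 4.17 ± 0.429 and 6.58 ± 0.265 FPKM (SD, n = 3). The log2 fold change of Psmg1 was -0.55 ± 0.10 (limma, adjusted p = 0.00821), the lowest p among the members. It was called lower in all 6 fits without 1 library (-0.61 to -0.49) and under all 4 other scalings (-0.50 to -0.34), and missed the threshold when variances were not moderated (adjusted p = 0.0696, limma fit without empirical Bayes). Psmg2, the partner of PSMG1 in that chaperone, did not pass the test (-0.14, 95% interval -0.45 to 0.18), and neither did Psmg3 (-0.04) and Psmg4 (-0.03), which form the other alpha ring chaperone. Psmg4 was at 33.1, 22.8 and 31.0 FPKM with anti–VEGF-B and at 32.7, 26.3 and 28.8 FPKM with IgG. The groups overlapped, and its level was above those of the other 3 Psmg genes, which lay between 3.39 and 5.37 FPKM as means over the 6 libraries.

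The 3 activator genes other than the 11S pair fell, where 23.8% of all genes tested were called lower. The inhibitor gene did not pass the test. Psme4 (PA200), a large single-chain cap on the core, was at 12.5, 12.3 and 10.1 FPKM with anti–VEGF-B and at 14.6, 17.2 and 16.5 FPKM with IgG. It did not overlap between groups and fell by 0.45 on the log2 scale (SE 0.10; limma, adjusted p = 0.0164), a call that was lost without anti–VEGF-B replicate 3 (adjusted p = 0.0601) and with median centring (adjusted p = 0.0881). Psme3 (PA28γ), the nuclear activator, was at 8.996, 9.84 and 9.29 FPKM with anti–VEGF-B and at 10.8, 16.1 and 13.0 FPKM with IgG. Its groups were apart at -0.45 ± 0.13 (limma, adjusted p = 0.0317), but it was called in 1 of the 6 fits without 1 library (IgG replicate 1) and under 0 of the 4 other scalings. Psme2b, a close relative of Psme2 on chromosome 11 (48945354 to 48946190, minus strand), was at 3.28, 3.37 and 1.78 FPKM with anti–VEGF-B and at 4.22, 6.76 and 4.83 FPKM with IgG. Its log2 fold change of -0.73 ± 0.20 (limma, adjusted p = 0.0274) was the lowest of the 47, and was not called without anti–VEGF-B replicate 3 or IgG replicate 2 (adjusted p up to 0.0814). Psme2b was also not called with quantile (adjusted p = 0.0725) or cyclic loess normalization (adjusted p = 0.0692, limma). The gene lies within Gm12185 on the same strand for all of its 837 bases, so its value is uncertain. Psmf1 (PI31), which binds and inhibits the core, was at 3.83, 3.66 and 3.73 FPKM with anti–VEGF-B and at 3.14, 4.74 and 3.14 FPKM with IgG. Only IgG replicate 2 stood above the anti–VEGF-B libraries, and the log2 fold change was 0.04 (95% interval -0.27 to 0.35).

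The classes were set against all genes under each scaling. With the deposited FPKM the median log2 fold change was -0.14 for the core, -0.15 for the immunoproteasome set and -0.18 for the regulatory particle, beside -0.15 for all genes tested. With quantile normalization the core was at -0.07, the immunoproteasome set at -0.17 and the regulatory particle at -0.02, beside 0.01 for all genes. With median centring the 3 classes were at 0.09, 0.08 and 0.00196, beside 0.04 for all genes, so that the sign of each class turned. Measured from the all-gene median, the core lay at 0.01, -0.08 and 0.05 with the deposited, quantile and median-centred values, and the immunoproteasome set at -0.000372, -0.18 and 0.04. The regulatory particle was at -0.03, -0.03 and -0.04 on the same comparison, and the assembly and other activator genes at -0.14, -0.14 and -0.12. Only for the last of these was the distance from all genes over 0.1 under all 3 scalings, and its 8 members include Psme2b, whose value is uncertain. These 8 were divided, with 4 below and 4 above the all-gene median with the deposited FPKM, so the class median stands for no shared shift. Its distance was not taken under scaling to Actb or cyclic loess normalization.

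**Figure D4:**
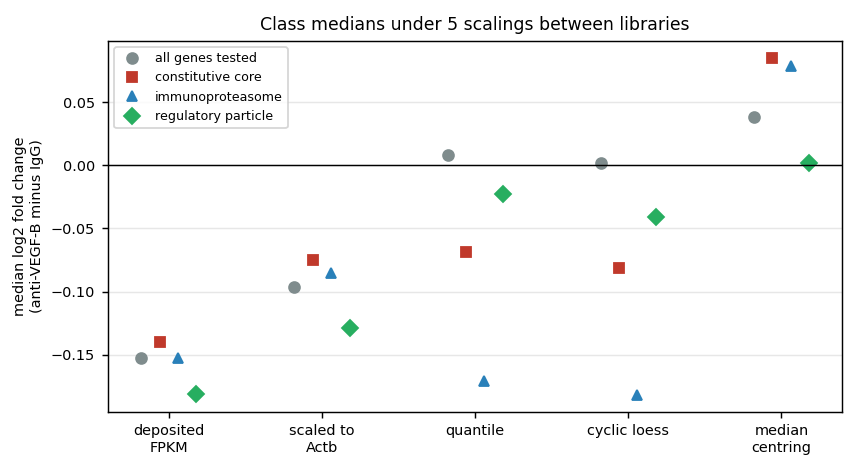
The median log2 fold change (anti–VEGF-B minus IgG) of the core, the immunoproteasome set, the regulatory particle and all genes tested under 5 scalings between libraries. With the deposited FPKM the 4 medians lie between -0.18 and -0.14, and with median centring all lie above 0, the core highest at 0.09.

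Proteins that bind the proteasome, feed it or help to build it were looked at beside its subunits. Of 16 such partner genes described here, 1 fell, 1 rose and 14 did not pass the test, with a median log2 fold change of -0.10. Over all genes tested 23.8% were called lower and 4.87% higher, with a median of -0.15. Rad23b, which shuttles ubiquitin-tagged proteins to the proteasome, was at 67.4, 63.1 and 66.5 FPKM with anti–VEGF-B and at 55.3, 51.9 and 56.8 FPKM with IgG. All its anti–VEGF-B libraries lay above all IgG libraries, with a log2 fold change of 0.26 ± 0.07 (limma, adjusted p = 0.0264). The rise was not called without anti–VEGF-B replicate 1 or 3 or IgG replicate 2 (adjusted p up to 0.0893 in limma). Zfand5, which binds and activates the 26S proteasome, fell by 0.40 on the log2 scale (limma, adjusted p = 0.0146), a call that was lost without anti–VEGF-B replicate 3 (adjusted p = 0.0613) and with quantile, cyclic loess and median scaling (adjusted p 0.0706 to 0.146, limma). Pomp, the chaperone that brings the beta subunits into new cores and is needed for immunoproteasomes, was at 11.8, 12.01 and 9.25 FPKM with anti–VEGF-B and at 9.31, 13.8 and 12.4 FPKM with IgG. The groups overlapped at -0.08 (95% interval -0.42 to 0.25).

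Transcription of proteasome genes is raised by NRF1 (Nfe2l1), which NGLY1 and DDI2 process, and by NRF2 (Nfe2l2), and NF-Y binds the promoters of many subunit genes. Of the 6 genes of this list, Nfe2l2 and Ngly1 fell and Nfyb rose. Lower calls covered 23.8% of all genes tested and higher calls 4.87%. Nfe2l2 was at 12.4, 11.2 and 10.9 FPKM with anti–VEGF-B and at 21.7, 20.5 and 17.5 FPKM with IgG. These groups lay far apart, with a log2 fold change of -0.74 ± 0.10 (limma, adjusted p = 0.00488), called in each fit without 1 library and under each scaling. The Nfe2l2 call was lost when variances were not moderated (adjusted p = 0.0696, limma fit without empirical Bayes). Nfe2l1 was at 3.41, 2.25 and 2.08 FPKM with anti–VEGF-B and at 2.46, 3.61 and 3.31 FPKM with IgG. Its groups overlapped at -0.21 (95% interval -0.58 to 0.15). Ngly1 was at 2.18, 1.95 and 1.55 FPKM with anti–VEGF-B and at 2.79, 3.54 and 3.22 FPKM with IgG, with a log2 fold change of -0.53 ± 0.12 (limma, adjusted p = 0.0147). Nfyb was at 72.3, 70.7 and 77.6 FPKM with anti–VEGF-B and at 54.5, 50.2 and 61.2 FPKM with IgG, with a log2 fold change of 0.41 ± 0.09 (limma, adjusted p = 0.0129). Neither overlapped between groups, and both calls were lost without anti–VEGF-B replicate 3 (adjusted p = 0.0600 and 0.0518). The Ngly1 call was also lost with quantile (adjusted p = 0.0630) and cyclic loess normalization (adjusted p = 0.0565, limma).

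Interferon signaling, in part through the factor IRF1, is the textbook inducer of the immunoproteasome genes, and Psmb8 and Psmb9 share a stretch of chromosome 17 with the peptide transporter genes Tap1 and Tap2 (34181988 to 34216321, 34334 bases). Of 11 interferon signaling genes described here, 4 fell (Irf9, Ifnar1, Tyk2 and Irf1, from -0.60 to -0.32), 0 rose and 7 did not pass the test, where 23.8% of all genes tested were called lower and 4.87% higher. The calls of Ifnar1 and Tyk2 were lost with quantile (adjusted p = 0.0852 and 0.0834) and cyclic loess normalization (0.0839 and 0.0732, limma), that of Ifnar1 also with median centring (adjusted p = 0.0616), and both without any 1 of the anti–VEGF-B libraries. Irf9, a part of the complex that answers type I interferon, was at 5.05, 5.72 and 4.74 FPKM with anti–VEGF-B and at 6.96, 9.72 and 8.13 FPKM with IgG. Its groups did not overlap and IgG replicate 2 was the highest library. The log2 fold change of Irf9 was -0.58 ± 0.12 (limma, adjusted p = 0.0130), a call that was lost without anti–VEGF-B replicate 3 (adjusted p = 0.0516). Irf1 was at 25.8, 31.0 and 26.8 FPKM with anti–VEGF-B and at 34.7, 38.3 and 31.9 FPKM with IgG, which lay apart by less than 1 FPKM. It fell by 0.32 on the log2 scale (limma, adjusted p = 0.0383), a call that was lost under the 4 other scalings and in 4 of the 6 fits without 1 library, those that left out anti–VEGF-B replicate 1 or 3 or IgG replicate 1 or 2 (adjusted p up to 0.118). Ifng itself did not pass the test, at 0.890 to 1.14 FPKM with anti–VEGF-B and 0.880 to 1.99 FPKM with IgG. The other genes not called were Ifngr1 (0.02), Ifngr2 (0.08), Jak1 (0.14), Jak2 (-0.06), Ifnar2 (-0.04) and Stat2 (-0.42).

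Of 12 genes of MHC class I peptide loading and its control, 6 fell (Tapbp, Calr, Nlrc5, Tap2, Pdia3 and H2-D1, from -0.85 to -0.27), 0 rose and 6 did not pass the test, beside the same 23.8% and 4.87% of all genes. With median centring Calr (adjusted p = 0.10001), Tap2 (0.0770), Pdia3 (0.777) and H2-D1 (0.777, limma) were not called. Scaling to Actb also ended the calls of Pdia3 (0.158) and H2-D1 (0.173), and quantile normalization that of H2-D1 (0.0558). Pdia3 and H2-D1 were each called in 2 of the 6 fits that left out 1 library. Nlrc5, the transactivator of MHC class I genes, which also acts on Psmb9 and Tap1, was at 6.85, 8.59 and 7.18 FPKM with anti–VEGF-B and at 10.5, 17.0 and 12.3 FPKM with IgG. Tap2 was at 20.2, 18.7 and 14.7 FPKM with anti–VEGF-B and at 24.3, 30.7 and 23.3 FPKM with IgG. Neither overlapped between groups, at -0.72 ± 0.16 (adjusted p = 0.0136) for Nlrc5 and -0.53 ± 0.14 (limma, adjusted p = 0.0220) for Tap2, the latter not called without anti–VEGF-B replicate 3 or IgG replicate 2. Tap1 was at 31.3, 32.5 and 28.5 FPKM with anti–VEGF-B and at 32.5, 53.0 and 30.1 FPKM with IgG. Here the groups overlapped, IgG replicate 2 alone being high, and the log2 fold change was -0.27 (95% interval -0.68 to 0.13). IgG replicate 2 was also the highest IgG library for Psmb8, Psmb9, Psmb10 and Psme2. Side by side, Irf9 stood at -0.58, Irf1 at -0.32, Nlrc5 at -0.72, Tap2 at -0.53 and Tap1 at -0.27. On the same log2 scale Psmb10 stood at -0.36, Psme2 at -0.27, Psmb8 at -0.15, Psmb9 at -0.01 and Psme1 at 0.20. Irf1 and Tap1 lay within the range of the immunoproteasome genes. The whole interferon list ran from -0.60 to 0.14 and the MHC class I list from -0.85 to 0.05. Differences between these genes were not tested.

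**Figure D5:**
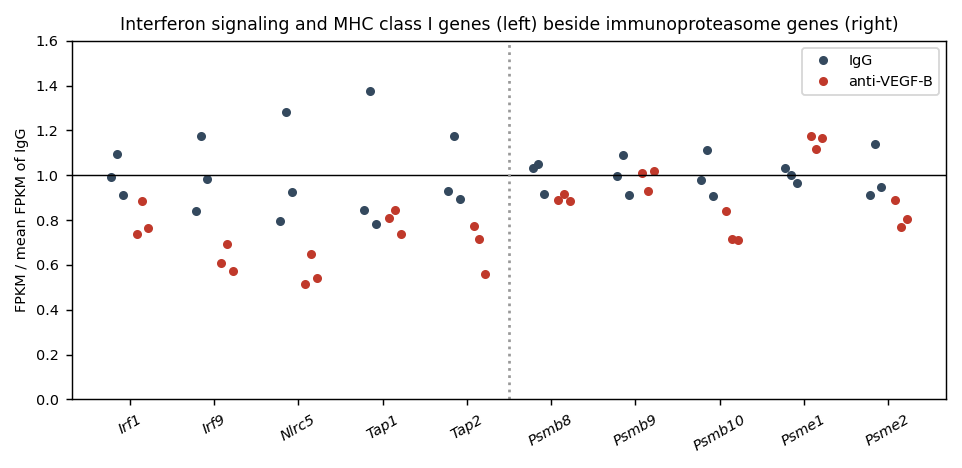
FPKM of 5 interferon signaling and MHC class I genes (left of the dotted line) and of the 5 immunoproteasome genes (right), each divided by the mean of its IgG libraries, with 1 point per library. The Irf9 and Nlrc5 points with anti–VEGF-B lie well under 1, those of Psmb9 lie on both sides of 1, and those of Psme1 lie above 1. The groups overlap for Tap1.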

How the data were processed

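RNA of CD4+ T cells was measured in 6 libraries. The authors made stranded libraries, aligned the reads to GRCm38 with hisat2, quantified genes with StringTie and Ballgown, and deposited 1 table of FPKM of protein-coding genes. It is named as raw data, but its values are not whole numbers. No step between libraries and no filter on the rows was stated. Among genes under 0.3 FPKM, at most 2.62% shared a ratio between libraries, so that read counts could not be had from the values and counting error is not known.

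The log2(FPKM + 1) of genes whose mean reached 1 FPKM was modelled with limma 3.58.1 (R 4.3.3; empirical Bayes with trend, two-sided, no covariate) over all 6 libraries, with Benjamini-Hochberg adjustment over 8816 genes. All 47 members were matched by symbol to RefSeq genes of GRCm38.p6. The members and lists were chosen with earlier results of these data known, and no list was tested as a set. Genes given in every library were the immunoproteasome genes and their counterparts, and per role the members with the lowest and highest fold change and the lowest p. Of the lists, called genes (at most 6 per list) and Irf1, Nlrc5, Tap1, Tap2, Nfe2l1 and Pomp could be named. Ifng and the other uncalled interferon signaling genes, Psmd14 and genes named only in counts were outside this rule. Some genes of the lists are not reported here. The fit was run on simulated data with independent noise in each gene and as many rises as falls. Those data lacked the shift of most genes seen here, so the run does not show how calls behave under it. Alternatives changed the scaling, filter, pseudocount, moderation, threshold, replicate block and libraries. With 3 libraries against 3 an exact two-sided permutation test of 1 value cannot go below p = 0.1, so none was used.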

Additional observations from a re-analysis of the deposited data

How the results depend on the processing

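The 18 proteasome genes called became 9 with quantile or cyclic loess normalization (8 lower with each) and 5 with median centring (2 lower, 3 higher) or scaling to Actb (4 lower). With calls made at p under 0.05 before adjustment and over 0.5 on the log2 scale in either direction they became 2 (2 lower, 0 higher), with 8 pathway genes against 18 and 1121 of all genes. A minimum mean of 5 FPKM left 2 higher and 1331 genes called of the 4927 then tested, and Actb scaling 1674 of all genes, against 2528 of 8816. Ordinary linear models with no moderation called 0 proteasome genes (0 lower, 0 higher), 0 pathway genes and 12 of all genes, while 22 proteasome genes and 3806 genes had an unadjusted p under 0.05 in limma. Without 1 library the count of proteasome genes ran from 2 to 15 (2 to 14 lower, 0 to 1 higher), that of pathway genes from 4 to 19 and that of all genes from 859 to 2467. With the replicate block 2 proteasome genes were higher, Psmc6 and Psme1 (adjusted p = 0.0471, limma), and the pathway genes called went from 18 to 24. Libraries of the same number deviated together with correlations of -0.03, 0.11 and 0.09, which did not show that the numbers pair the libraries, and the labels do not say whether they do.

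The median of the core moved to 0.085 and that of the immunoproteasome set to 0.078 with median centring, and that of the regulatory particle to 0.00196 with median centring, -0.023 with quantile and -0.041 with cyclic loess normalization. The log2 difference between groups of the ratio of Psmb8 to Psmb5 was 0.14 and moved to 0.049 (quantile) and 0.061 (cyclic loess), and that of Psmb9 to Psmb6 from 0.00596 to 0.12 and 0.13. In 35 of 739 values of single genes the sign turned, and in 0 of these was the gene called before or after. With quantile normalization these were Psmb6 (0.028), Psmb9 (0.13), Psmd5 (0.088), Psmg4 (0.0337), Nfe2l1 (0.0338) and Pomp (0.057). With cyclic loess they were Psmb6 (0.00314), Psmb9 (0.12), Psmd5 (0.075), Psmd9 (0.017), Psmg4 (0.019), Nfe2l1 (0.013) and Pomp (0.047). With median centring they were Psmb6 (0.21), Psmb8 (0.078), Psmb9 (0.20), Psmd5 (0.00203), Psmg4 (0.20) and Pomp (0.13), and with Actb Psmb6 (0.046), Psmb9 (0.049) and Psmg4 (0.038). Without 1 library, Psmb6 ran from -0.090 to 0.020, Psmb9 from -0.072 to 0.046, Psma2 from -0.025 to 0.12, Psmg4 from -0.13 to 0.13, Psmf1 from -0.042 to 0.19 and Pomp from -0.23 to 0.027. The cause of these shifts was not tested. Dropping the filter or changing the pseudocount to 0.1 or 5 left the counts of called proteasome genes at 18. With FPKM only, depth and the precision of low genes stay unknown.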

Other observations

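Genes that supply ubiquitin and extract tagged proteins before the proteasome breaks them down were looked at as a further list. Of 10 such genes described here, 2 fell with anti–VEGF-B, 1 rose and 7 did not pass the test, with a median log2 fold change of -0.04. For all genes tested the median was -0.15, and 23.8% were called lower and 4.87% higher. Ubb, a polyubiquitin gene, was at 1010, 903 and 1071 FPKM with anti–VEGF-B and at 839, 707 and 810 FPKM with IgG. Its groups did not overlap, with a log2 fold change of 0.34 ± 0.10 (limma, adjusted p = 0.0312), a call that was lost in 4 of the 6 fits without 1 library (all but those without anti–VEGF-B replicate 2 or IgG replicate 1). Rps27a, which encodes ubiquitin fused to a ribosomal protein, was at 0.22 and did not pass the test.

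Vcp, the ATPase that pulls tagged proteins out of membranes and complexes, was at 31.5, 34.5 and 30.5 FPKM with anti–VEGF-B and at 40.1, 48.4 and 39.3 FPKM with IgG. Faf2, a membrane-bound partner of VCP, was at 1.33, 1.405 and 1.05 FPKM with anti–VEGF-B and at 2.18, 3.82 and 2.18 FPKM with IgG. Neither gene overlapped between groups, at -0.39 ± 0.10 (adjusted p = 0.0193) for Vcp and -0.70 ± 0.17 (limma, adjusted p = 0.0176) for Faf2. Without anti–VEGF-B replicate 3 neither was called (adjusted p = 0.0704 and 0.0637 in limma), and Vcp was also not called without anti–VEGF-B replicate 1 or IgG replicate 2 (up to 0.0533), with median centring (adjusted p = 0.157) or with scaling to Actb (adjusted p = 0.0722). The VCP cofactors Nploc4 (-0.14), Ufd1 (0.06), Ubxn1 (0.06) and Nsfl1c (0.01) did not pass the test.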
